A study of Mus musculus with 18 samples.

Results

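The Wnt ligands, Frizzled receptors and Wnt inhibitors are described here as a gene module. Members were taken by gene symbol alone, as every measured Wnt ligand, *Fzd1* to *Fzd10*, *Sfrp1* to *Sfrp5*, *Dkk1* to *Dkk4*, *Dkkl1*, *Frzb*, *Wif1*, *Rspo1* to *Rspo4*, *Notum*, *Axin2* and *Lef1*. They number 47 of the 52636 genes in the count table: 19 ligands, 10 receptors, 4 R-spondins, 12 inhibitors and 2 target genes.

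The study examined RPE of C57BL/6 mice at postnatal day 14 by RNA-seq, in 18 libraries of 6 groups with 3 libraries each. It asked which genes respond in the RPE to nuclear SREBP2 and to knockdown of *Lrp2*, the gene of the endocytic receptor megalin. Each library held the pooled RPE of both eyes of 1 mouse, dissociated with papain from eyecups freed of retina, so RNA of neighboring cells can be present. Uninjected mice received no vector. All other groups received an AAV8 vector with the *Best1* promoter, which directs expression to the RPE, into the subretinal space of both eyes at postnatal day 0. The GFP vector encoded a fluorescent protein and was the control of the nSREBP2 vector, which encoded the nuclear, active form of SREBP2. The ctrl sh vector, labelled Laczsh, carried a hairpin against LacZ and was the control of the *Lrp2* sh1 and *Lrp2* sh2 vectors, each with a different hairpin against *Lrp2*. By the paper's methods, hairpin vectors held mCherry and a hairpin in place of GFP, so ctrl sh and GFP vectors differed in both. Injection, AAV8 capsid and promoter were therefore shared by all injected groups and absent from the uninjected group.

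Wnt ligands are secreted lipid-modified proteins that bind Frizzled receptors together with the co-receptors Lrp5 and Lrp6, which stabilizes β-catenin and lets it activate target genes with TCF and LEF factors, or they signal through β-catenin-independent routes to the cytoskeleton. R-spondins raise the amount of Frizzled at the cell surface, whereas secreted Frizzled-related proteins, Wif1, Notum and most Dickkopf proteins restrain the pathway. In the eye, Wnt signaling is known for roles in RPE specification, the ciliary margin and the growth of retinal vessels through *Fzd4*.

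Counts on genes totaled 8921885 to 10232105 per uninjected library, 11092959 to 13231479 per GFP library and 11340405 to 11439251 per nSREBP2 library. The ctrl sh libraries held 11814113 to 13696934 counts, *Lrp2* sh1 libraries 12188538 to 12655566 and *Lrp2* sh2 libraries 12101954 to 12251001. Levels are given as CPM, scaled by library size with TMM factors over the 18 libraries. Where a gene had no count, up to 3 counts remain compatible with it at these depths, which is 0.218 to 0.323 CPM per library, a limit that covers counting error only.

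Several libraries stood apart before any member was considered. By Y-linked genes and *Xist*, the 3 GFP, 3 ctrl sh and 3 *Lrp2* sh1 mice were female and the 3 nSREBP2 mice were male. Uninjected replicate 3 and *Lrp2* sh2 replicates 2 and 3 were male as well. Sex and nSREBP2 therefore cannot be told apart in nSREBP2 versus GFP, and a fit of the 18 libraries with sex as a term is given beside it. That fit takes its sex effect from uninjected and *Lrp2* sh2 libraries, the only groups with both sexes. It assumes the same sex effect in the other groups, which was not tested. The RPE label was checked against 8 RPE markers, none of which was at 0 in any library. Their summed level was 2310.3, 6233 and 6834 CPM in uninjected, 466, 479 and 400.3 in GFP and 481, 415 and 319.6 in nSREBP2 libraries. In ctrl sh it was 3353, 1707 and 1874 CPM, in *Lrp2* sh1 1234, 1983 and 1318 and in *Lrp2* sh2 398, 426 and 717. *Ttr* was the most abundant of them by its mean over the 18 libraries. The GFP, nSREBP2, *Lrp2* sh1 and *Lrp2* sh2 sums lay below every uninjected one. *Rpe65*, the retinoid isomerase, singled out after its values were seen, averaged 813 CPM in uninjected, 1.64 in GFP and 3.13 in nSREBP2 libraries. Fibroblast and scleral markers summed to 18420.4 to 86712 CPM and exceeded the RPE sum in each of the 18 libraries, so the libraries held RNA of more than the RPE.

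Markers of other cells of the eyecup also moved with the groups, and their part in the results on members was not tested. Endothelial markers were called by edgeR as 6 lower of 8 in nSREBP2 versus GFP, 1 lower of 8 in *Lrp2* sh1 versus ctrl sh and 7 lower of 8 in *Lrp2* sh2 versus ctrl sh. The endothelial sum, with *Kdr* as the most abundant gene over the 18 libraries, was 1715, 1738 and 2205 CPM in GFP and 1417, 1355 and 1321 in nSREBP2 libraries, and 1983, 1990.2 and 1878 in ctrl sh, 1860.2, 1817 and 1734 in *Lrp2* sh1 and 1235, 1299 and 1240.1 in *Lrp2* sh2 libraries, with 2171, 2247 and 1923 in uninjected ones. Fibroblast and scleral markers were called by edgeR as 8 higher of 8 in nSREBP2 versus GFP, 0 of 8 in *Lrp2* sh1 versus ctrl sh (2 at an unadjusted *P* under 0.05 and 2 in DESeq2) and 4 higher of 8 in *Lrp2* sh2 versus ctrl sh. Their sum, with *Col1a1* highest on that scale, was 30123, 30160.2 and 18420.4 CPM in uninjected, 34504, 39301 and 43851 in GFP and 86712, 71313 and 80133 in nSREBP2 libraries, and 33254, 46373 and 46924 in ctrl sh, 44416, 53706 and 51202 in *Lrp2* sh1 and 44669.5, 50835 and 42572 in *Lrp2* sh2 libraries. No endothelial or fibroblast marker was at 0 in any library. RPE markers were called by edgeR as 2 higher and 3 lower of 8 in nSREBP2 versus GFP, 1 lower of 8 in *Lrp2* sh1 versus ctrl sh and 5 lower of 8 in *Lrp2* sh2 versus ctrl sh. Macrophage markers were called by edgeR as 8 higher of 8 in nSREBP2 versus GFP, 1 lower of 8 in *Lrp2* sh1 versus ctrl sh and 2 higher of 8 in *Lrp2* sh2 versus ctrl sh. Rod markers were called by edgeR as 2 higher of 8 in nSREBP2 versus GFP, 0 of 7 in *Lrp2* sh1 versus ctrl sh (0 at an unadjusted *P* under 0.05 and 0 in DESeq2) and 7 higher of 8 in *Lrp2* sh2 versus ctrl sh.

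Other retinal markers were called by edgeR as 3 higher and 1 lower of 6 in nSREBP2 versus GFP, 0 of 3 in *Lrp2* sh1 versus ctrl sh (0 at an unadjusted *P* under 0.05 and 0 in DESeq2) and 4 higher of 6 in *Lrp2* sh2 versus ctrl sh. Müller glial markers were called by edgeR as 1 higher and 2 lower of 6 in nSREBP2 versus GFP, 1 lower of 6 in *Lrp2* sh1 versus ctrl sh and 2 lower of 6 in *Lrp2* sh2 versus ctrl sh. Melanocyte markers were called by edgeR as 1 lower of 6 in nSREBP2 versus GFP, 0 of 6 in *Lrp2* sh1 versus ctrl sh (2 at an unadjusted *P* under 0.05 and 2 in DESeq2) and 1 lower of 6 in *Lrp2* sh2 versus ctrl sh. Several genes of the Müller glial and melanocyte lists are also made by RPE. Pericyte and smooth muscle markers were called by edgeR as 3 lower of 6 in nSREBP2 versus GFP, 2 lower of 6 in *Lrp2* sh1 versus ctrl sh and 1 higher and 3 lower of 6 in *Lrp2* sh2 versus ctrl sh. Schwann cell markers were called by edgeR as 0 of 4 in nSREBP2 versus GFP (1 at an unadjusted *P* under 0.05 and 0 in DESeq2), 0 of 4 in *Lrp2* sh1 versus ctrl sh (2 at an unadjusted *P* under 0.05 and 0 in DESeq2) and 1 lower of 4 in *Lrp2* sh2 versus ctrl sh. Skeletal muscle markers were called by edgeR as 1 lower of 4 in nSREBP2 versus GFP, 0 of 4 in *Lrp2* sh1 versus ctrl sh (0 at an unadjusted *P* under 0.05 and 0 in DESeq2) and 0 of 4 in *Lrp2* sh2 versus ctrl sh (1 at an unadjusted *P* under 0.05 and 1 in DESeq2). Blood markers were called by edgeR as 0 of 3 in nSREBP2 versus GFP (0 at an unadjusted *P* under 0.05 and 0 in DESeq2), 0 of 3 in *Lrp2* sh1 versus ctrl sh (3 at an unadjusted *P* under 0.05 and 1 in DESeq2) and 3 lower of 3 in *Lrp2* sh2 versus ctrl sh. Surface epithelial markers were called by edgeR as 7 higher of 7 in nSREBP2 versus GFP, 0 of 7 in *Lrp2* sh1 versus ctrl sh (0 at an unadjusted *P* under 0.05 and 0 in DESeq2) and 1 higher of 7 in *Lrp2* sh2 versus ctrl sh. The surface epithelial list of 8 genes, not all of which were tested, was written after the data were seen. Its sum, with *Krt5* highest over the 18 libraries, reached 3009 CPM in nSREBP2 replicate 3, 1715 in *Lrp2* sh2 replicate 3 and 692 in *Lrp2* sh1 replicate 3, the highest library of each of these groups.

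**Figure D1:**
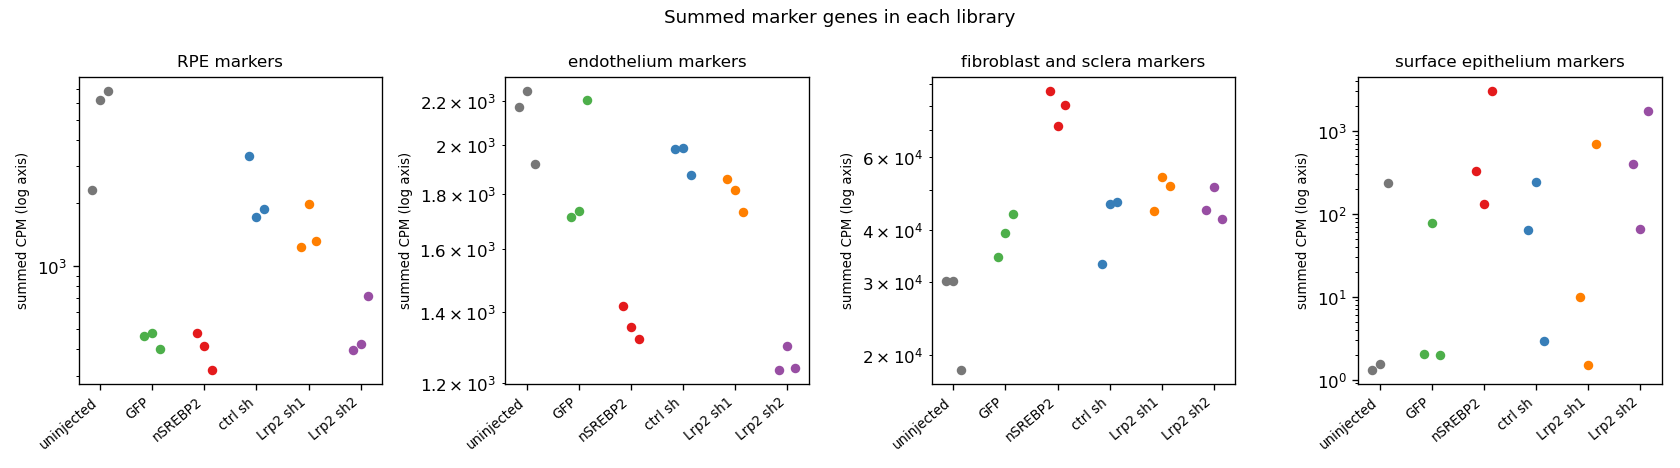
Summed CPM (log axis) of marker lists in each of the 18 libraries, 1 point per library, by group. The RPE sums of the GFP libraries (400.3 to 479 CPM) and nSREBP2 libraries (319.6 to 481 CPM) lie below those of the uninjected libraries (2310.3 to 6834 CPM). Those of the *Lrp2* sh1 libraries (1234 to 1983 CPM) and *Lrp2* sh2 libraries (398 to 717 CPM) do as well.

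The manipulated genes were examined first. *Srebf2* was at 87.2, 114 and 94.9 CPM in uninjected, 82.9, 113 and 106 in GFP and 236, 207 and 209 in nSREBP2 libraries. For *Srebf2*, the values were 122, 114 and 108 CPM in ctrl sh, 102, 119.7 and 116 in *Lrp2* sh1 and 108, 102 and 105 in *Lrp2* sh2 libraries. Every nSREBP2 library was above every other library. *Srebf2* encodes SREBP2 (ENSMUSG00000022463.7, chr15:82147181-82205379, plus strand). It rose in nSREBP2 against GFP (log2FC 1.10, SE 0.11, edgeR adjusted *P* = 1.21e-04), and its count does not separate vector transcripts from those of the mouse gene. *Lrp2* was at 55.3, 139 and 149 CPM in uninjected, 175, 160.3 and 87.6 in GFP and 38.1, 29.8 and 25.3 in nSREBP2 libraries. For *Lrp2*, the values were 167, 87.7 and 100.2 CPM in ctrl sh, 29.7, 42.8 and 38.2 in *Lrp2* sh1 and 37.8, 34.5 and 43.9 in *Lrp2* sh2 libraries. The nSREBP2 and both hairpin groups lay below all their control libraries, and uninjected replicate 1 was the lowest library without nSREBP2 or an *Lrp2* hairpin. *Lrp2* (ENSMUSG00000027070.14, chr2:69424340-69586065, minus strand) fell in nSREBP2 against GFP (log2FC −2.18, SE 0.24, edgeR adjusted *P* = 2.33e-04). *Lrp2* also fell in *Lrp2* sh1 against ctrl sh (log2FC −1.68, SE 0.22, edgeR adjusted *P* = 0.00328). *Lrp2* likewise fell in *Lrp2* sh2 against ctrl sh (log2FC −1.60, SE 0.21, edgeR adjusted *P* = 0.00109). Positions are those of GENCODE M21 for GRCm38.

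Of the 47 members, 37 averaged at least 1 CPM in at least 1 group: 13 of 19 ligands, all 10 receptors, 3 of 4 R-spondins, 9 of 12 inhibitors and both targets. The other 10 (*Wnt1*, *Wnt3*, *Wnt3a*, *Wnt7a*, *Wnt8a*, *Wnt8b*, *Dkk1*, *Dkk4*, *Dkkl1* and *Rspo4*) had 5 to 110 counts over the 18 libraries, at most 12 in any library and a highest group mean of 0.572 CPM. Per kb of exon, the scale on which genes can be compared, *Dkk3* had the highest level of the members with 125 CPM per kb over the 18 libraries. It was followed by *Fzd1* (51.1), *Fzd7* (44.4), *Sfrp2* (40.003), *Fzd4* (38.5) and *Sfrp1* (33.2 CPM per kb). Among ligands, *Wnt5a* was highest (26.4), ahead of *Wnt9a* (10.7) and *Wnt2b* (9.85 CPM per kb). This order is one of means over 18 libraries and changed within groups. For example, *Wnt5a* (33.9) stood above *Sfrp2* (28.6 CPM per kb) in nSREBP2. The R-spondins were lower, with *Rspo2* at 1.85 and *Rspo3* at 0.839 CPM per kb.

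**Figure D2:**
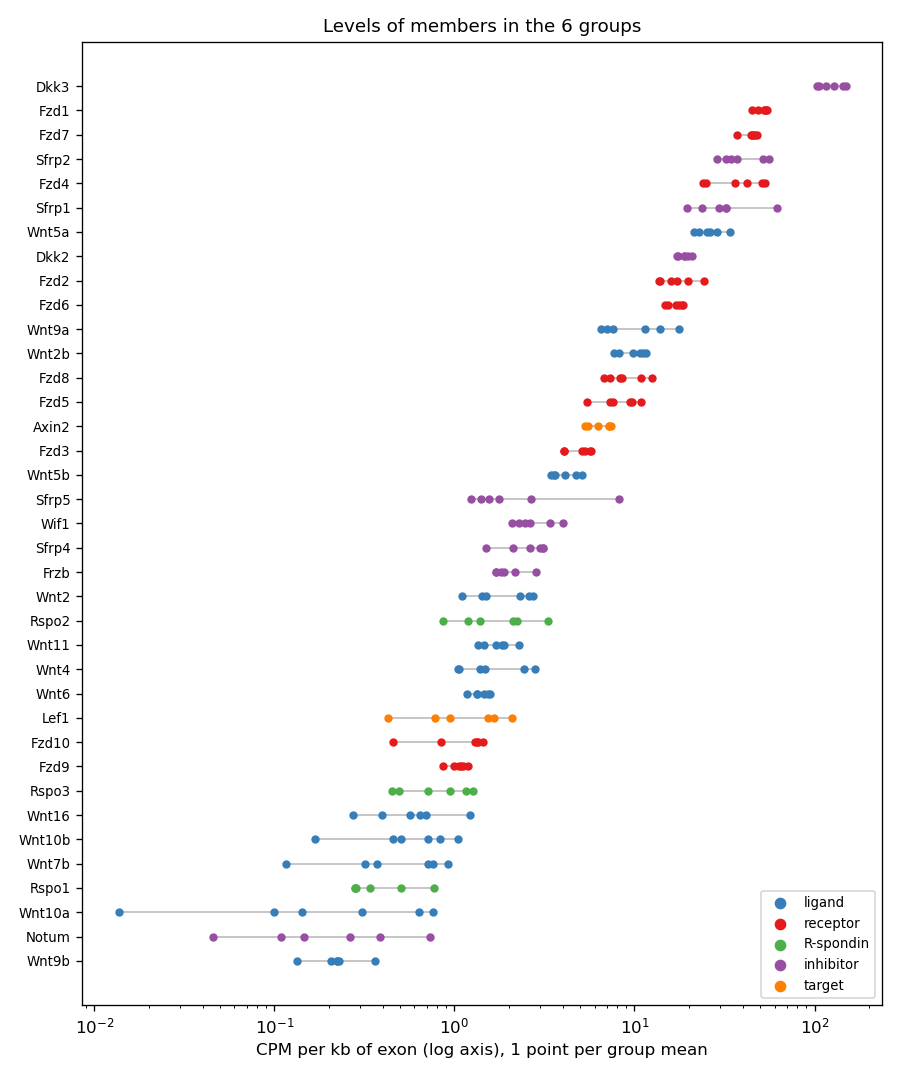
Group means of the 37 of 47 members that met the limit on group mean level, in CPM per kb of exon (log axis), colored by role. By its mean over the 18 libraries, *Dkk3* is highest at 125 CPM per kb. The 18-library means of ligands other than *Wnt5a* lie at or below 10.7. Single group means can be higher, as for *Wnt9a* in nSREBP2 (17.7 CPM per kb).

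With nSREBP2, most of the members called were lower. Among those called, the β-catenin partner *Lef1*, the R-spondins *Rspo2* and *Rspo3* and the receptor *Fzd4* fell most, while the ligand *Wnt9a* rose most. A gene was called significant at an edgeR adjusted *P* under 0.05, adjusted over all genes tested in that comparison. In nSREBP2 versus GFP, 14 of the 34 members tested were significant, 3 higher and 11 lower, against 21% of all genes tested, 12.6% higher and 8.47% lower. Of those 34, 5 passed the study's further limit of an absolute log2FC above 1 in nSREBP2 versus GFP, against 6.67% of all genes. Their median log2FC was −0.070, beside −0.020 over all genes tested in nSREBP2 versus GFP. With sex as a term in the fit of 18 libraries, 7 of the 14 calls were kept, and those of *Axin2*, *Fzd3*, *Fzd8*, *Rspo3*, *Sfrp2*, *Wnt2b* and *Wnt5b* were lost. Since the sex effect in that fit comes from other groups, a kept or lost call does not separate sex from nSREBP2. In these bulk libraries, fewer cells of a type and less RNA per cell cannot be told apart.

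With *Lrp2* sh1, *Sfrp1*, *Lef1*, *Sfrp2* and *Rspo2* fell most of the members called, and *Sfrp5*, *Wnt2* and *Wnt9a* rose most. Only the *Sfrp1* and *Wnt9a* calls were kept in every omission of 1 library. For *Lrp2* sh1 versus ctrl sh, 10 of the 34 members tested were significant, 4 higher and 6 lower, against 5.33% of all genes tested, 3.06% higher and 2.28% lower. Of those 34, 1 passed the study's further limit of an absolute log2FC above 1 in *Lrp2* sh1 versus ctrl sh, against 0.994% of all genes. The median log2FC of these members was −0.12, beside −0.0082 over all genes tested in *Lrp2* sh1 versus ctrl sh. With libraries left out in turn, the count of 10 in *Lrp2* sh1 versus ctrl sh changed by more than 1.5 times to these values (omitted library in parentheses): 6 (ctrl sh replicate 2), 5 (ctrl sh replicate 3), 3 (*Lrp2* sh1 replicate 1), 2 (*Lrp2* sh1 replicate 2) and 4 (*Lrp2* sh1 replicate 3). With *Lrp2* sh2, *Lef1*, *Sfrp1* and *Rspo2* fell and *Wnt9a* and *Fzd2* rose. For *Lrp2* sh2 versus ctrl sh, 15 of the 35 members tested were significant, 5 higher and 10 lower, against 18.1% of all genes tested, 8.59% higher and 9.48% lower. Of those 35, 0 passed in edgeR (2 at an unadjusted *P* under 0.05 and 0 in DESeq2) the study's further limit of an absolute log2FC above 1 in *Lrp2* sh2 versus ctrl sh, against 4.76% of all genes. Tested members had a median log2FC of −0.15, beside 0.0061 over all genes tested in *Lrp2* sh2 versus ctrl sh. With libraries left out in turn, the count of 15 in *Lrp2* sh2 versus ctrl sh changed by more than 1.5 times to these values (omitted library in parentheses): 9 (ctrl sh replicate 2) and 9 (ctrl sh replicate 3). With sex as a term, the calls of *Fzd5*, *Fzd6*, *Fzd7*, *Sfrp2*, *Wif1* and *Wnt2* in *Lrp2* sh2 versus ctrl sh were lost. The hairpin comparisons share their 3 ctrl sh libraries and are not independent of each other.

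**Figure D3:**
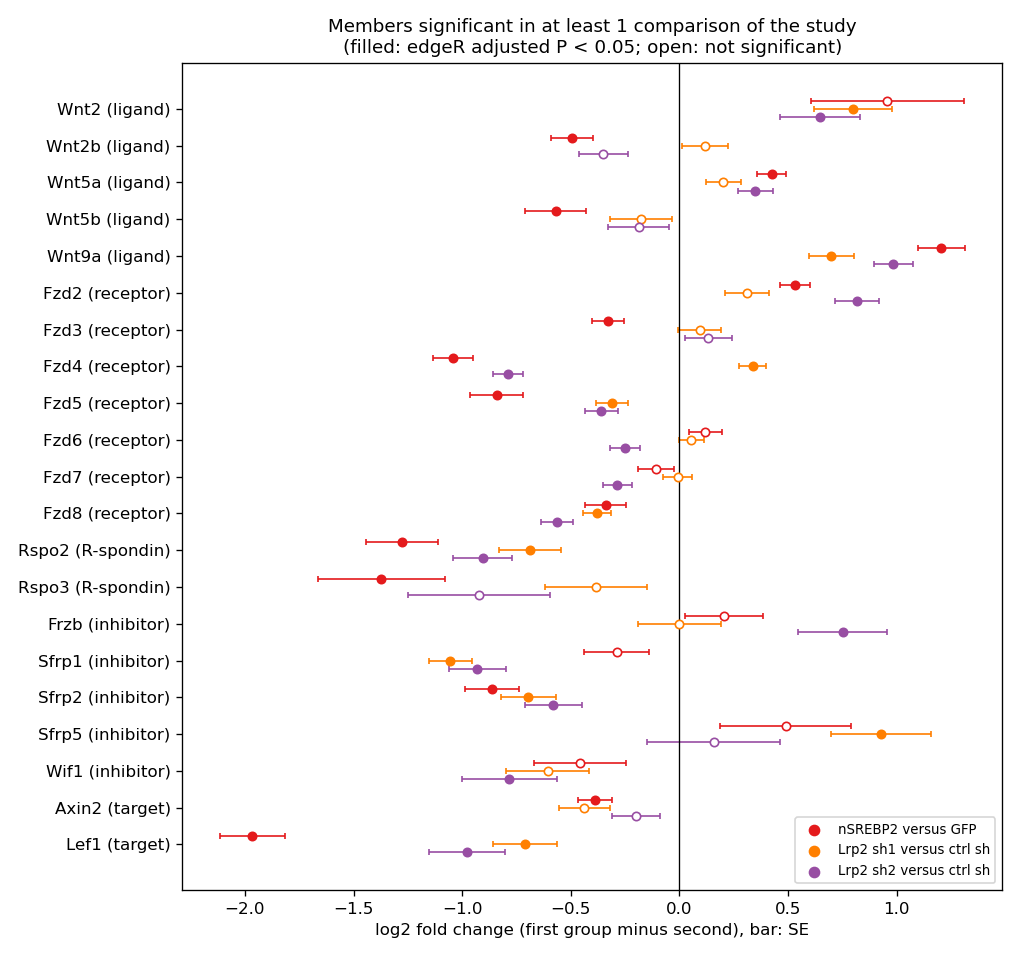
Log2 fold change (bars, SE) of the members significant in at least 1 of the 3 comparisons of the study, with filled points for an edgeR adjusted *P* under 0.05. *Lef1* lies lowest in nSREBP2 versus GFP at −1.97, and *Wnt9a* lies above 0 in each comparison.

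Among the ligands, 4 of 11 tested changed in nSREBP2 versus GFP, 2 of 12 in *Lrp2* sh1 and 3 of 11 in *Lrp2* sh2 versus ctrl sh, against 21%, 5.33% and 18.1% of all genes. These are few genes. *Wnt9a* (ENSMUSG00000000126.11, chr11:59306928-59333552, plus strand) encodes a ligand known from joint and skeletal development. *Wnt9a* was at 19.97, 23.0 and 22.2 CPM in uninjected, 26.3, 22.1 and 27.9 in GFP and 65.1, 58.7 and 53.1 in nSREBP2 libraries. For *Wnt9a*, the values were 23.4, 23.6 and 23.5 CPM in ctrl sh, 33.9, 36.5 and 44.0 in *Lrp2* sh1 and 44.8, 51.2 and 42.3 in *Lrp2* sh2 libraries. The nSREBP2 libraries were the 3 highest of all, and both hairpin groups lay above every ctrl sh library. *Wnt9a* rose in nSREBP2 against GFP (log2FC 1.21, SE 0.11, edgeR adjusted *P* = 6.71e-05). *Wnt9a* rose in *Lrp2* sh1 against ctrl sh (log2FC 0.70, SE 0.10, edgeR adjusted *P* = 0.00572). *Wnt9a* rose in *Lrp2* sh2 against ctrl sh (log2FC 0.98, SE 0.09, edgeR adjusted *P* = 1.85e-04). These calls were kept with each library left out in turn.

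*Wnt5a* (ENSMUSG00000021994.15, chr14:28504750-28527448, plus strand), the main ligand of β-catenin-independent signaling, was the most abundant ligand per kb. *Wnt5a* was at 173, 179 and 153 CPM in uninjected, 196, 188 and 207 in GFP and 279, 262 and 254 in nSREBP2 libraries. For *Wnt5a*, the values were 172, 194 and 169.8 CPM in ctrl sh, 207, 187 and 223 in *Lrp2* sh1 and 235, 234 and 208 in *Lrp2* sh2 libraries. The nSREBP2 libraries were above all others, and the *Lrp2* sh2 libraries were above all ctrl sh libraries. *Wnt5a* rose in nSREBP2 against GFP (log2FC 0.42, SE 0.07, edgeR adjusted *P* = 0.00194). *Wnt5a* rose in *Lrp2* sh2 against ctrl sh (log2FC 0.35, SE 0.08, edgeR adjusted *P* = 0.0159). *Wnt5a* lost this call without ctrl sh replicate 3, *Lrp2* sh2 replicate 1 or *Lrp2* sh2 replicate 2 (edgeR adjusted *P* from 0.0124 to 0.0783 over 6 omissions). 358 of its exon bases are shared with a gene on the opposite strand. The paper names a directional library kit but does not state the use of strand in counting, so such counts are uncertain. *Axin2* (209 bases), *Fzd6* (152), *Wnt11* (364) and *Wnt7b* (324) share exon bases in the same way. *Wnt2b*, a ligand known from the ciliary margin and peripheral eye, ran the other way. *Wnt2b* was at 53.6, 44.6 and 42.0 CPM in uninjected, 46.1, 55.3 and 44.5 in GFP and 32.3, 36.9 and 34.3 in nSREBP2 libraries. For *Wnt2b*, the values were 38.5, 46.4 and 39.1 CPM in ctrl sh, 42.0, 41.3 and 51.2 in *Lrp2* sh1 and 32.1, 36.2 and 28.2 in *Lrp2* sh2 libraries. The nSREBP2 libraries were below all GFP libraries, and the *Lrp2* sh2 libraries were below all *Lrp2* sh1 libraries. *Wnt2b* fell in nSREBP2 against GFP (log2FC −0.49, SE 0.10, edgeR adjusted *P* = 0.00626).

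*Wnt5b* encodes a ligand close to Wnt5a. *Wnt5b* was at 13.7, 11.8 and 12.4 CPM in uninjected, 11.7, 15.6 and 13.4 in GFP and 8.84, 9.50 and 9.14 in nSREBP2 libraries. For *Wnt5b*, the values were 9.29, 12.2 and 11.3 CPM in ctrl sh, 8.53, 10.1 and 10.4 in *Lrp2* sh1 and 9.42, 9.22 and 9.88 in *Lrp2* sh2 libraries. All nSREBP2 libraries were below all GFP libraries. *Wnt5b* fell in nSREBP2 against GFP (log2FC −0.57, SE 0.14, edgeR adjusted *P* = 0.0175). *Wnt5b* lost this call without GFP replicate 2 or nSREBP2 replicate 1 (edgeR adjusted *P* from 0.0167 to 0.0808 over 6 omissions). *Wnt2*, a ligand of the β-catenin route, was low. *Wnt2* was at 3.73, 1.55 and 2.16 CPM in uninjected, 3.65, 3.82 and 2.10 in GFP and 4.23, 4.71 and 9.60 in nSREBP2 libraries. For *Wnt2*, the values were 3.55, 3.59 and 2.95 CPM in ctrl sh, 5.29, 5.54 and 6.80 in *Lrp2* sh1 and 5.43, 5.53 and 4.77 in *Lrp2* sh2 libraries. Both hairpin groups lay above ctrl sh without overlap. *Wnt2* rose in *Lrp2* sh1 against ctrl sh (log2FC 0.80, SE 0.18, edgeR adjusted *P* = 0.0350). *Wnt2* lost this call without any 1 library other than ctrl sh replicate 1 (edgeR adjusted *P* from 0.0431 to 0.121 over 6 omissions). DESeq2 did not call *Wnt2* in *Lrp2* sh1 versus ctrl sh (log2FC 0.81, adjusted *P* = 0.0567). *Wnt2* rose in *Lrp2* sh2 against ctrl sh (log2FC 0.65, SE 0.19, edgeR adjusted *P* = 0.0395). *Wnt2* lost this call without any 1 of the 6 libraries (edgeR adjusted *P* from 0.0552 to 0.129 over 6 omissions). DESeq2 did not call *Wnt2* in *Lrp2* sh2 versus ctrl sh (log2FC 0.64, adjusted *P* = 0.137).

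*Wnt4*, *Wnt7b* and *Wnt10a*, ligands made by many epithelia, varied between libraries of the same group. Where tested in the 7 comparisons, they were not significant. *Wnt4* was at 5.65, 5.80 and 7.11 CPM in uninjected, 4.07, 4.79 and 4.50 in GFP and 5.45, 6.01 and 23.8 in nSREBP2 libraries. For *Wnt4*, the values were 4.21, 5.47 and 3.46 CPM in ctrl sh, 3.40, 3.55 and 10.5 in *Lrp2* sh1 and 7.51, 4.61 and 18.7 in *Lrp2* sh2 libraries. Replicate 3 was the highest library of nSREBP2, *Lrp2* sh1 and *Lrp2* sh2, the libraries with the highest surface epithelial sums. *Wnt7b* was at 12.2, 0.290 and 0.970 CPM in uninjected, 0.849, 0.621 and 0.225 in GFP and 0.752, 0.697 and 9.69 in nSREBP2 libraries. For *Wnt7b*, the values were 0.580, 3.51 and 1.35 CPM in ctrl sh, 1.03, 0.827 and 2.81 in *Lrp2* sh1 and 2.16, 2.18 and 6.19 in *Lrp2* sh2 libraries. Replicate 3 was again highest in those groups, and uninjected replicate 1 was the highest of all although its surface epithelial sum was 1.31 CPM. *Wnt10a* was at 0.101, 0 and 0 CPM in uninjected, 0.255, 0.177 and 0.300 in GFP and 0.940, 0 and 4.66 in nSREBP2 libraries. For *Wnt10a*, the values were 0.435, 0.625 and 0 CPM in ctrl sh, 0.158, 0.331 and 1.79 in *Lrp2* sh1 and 0.799, 0 and 3.93 in *Lrp2* sh2 libraries. Outside replicate 3 of those groups, no library reached 1 CPM of *Wnt10a*. The surface epithelial sums were 1.31, 1.55 and 235 CPM in uninjected, 2.04, 77.2 and 1.95 in GFP and 329, 130.2 and 3009 in nSREBP2 libraries. In ctrl sh they were 63.8, 242 and 2.95 CPM, in *Lrp2* sh1 9.88, 1.49 and 692 and in *Lrp2* sh2 392, 65.0 and 1715. *Krt12* was at 0 in *Lrp2* sh1 replicate 3, and no marker of the list was at 0 in replicate 3 of nSREBP2 or *Lrp2* sh2. In each of the latter, however, *Krt12* had only 3 counts (0.274 and 0.251 CPM). Its highest libraries were uninjected replicate 3 with 57 counts and GFP replicate 2 with 54, so *Krt12* did not follow the sum. Without nSREBP2 replicate 3, 14 members were significant against GFP, 13 of them among the 14. The nSREBP2 libraries left in that fit (329 and 130.2 CPM) still had surface epithelial sums above every GFP library. The omission therefore does not remove this difference, and the part of these markers in the calls was not tested.

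The remaining ligands above 1 CPM were not significant in the 3 comparisons of the study where tested. *Wnt11* was at 11.2, 8.90 and 8.19 CPM in uninjected, 8.40, 7.90 and 6.98 in GFP and 8.37, 6.97 and 7.49 in nSREBP2 libraries. For *Wnt11*, the values were 5.88, 7.81 and 7.33 CPM in ctrl sh, 5.06, 5.04 and 6.63 in *Lrp2* sh1 and 7.03, 5.11 and 5.94 in *Lrp2* sh2 libraries. *Wnt11*, a ligand of β-catenin-independent signaling, kept within 5.04 to 11.2 CPM, with overlap in those comparisons, and all uninjected libraries were above all ctrl sh libraries. *Wnt6* was at 2.72, 4.16 and 3.23 CPM in uninjected, 3.31, 2.22 and 3.30 in GFP and 1.88, 3.31 and 4.39 in nSREBP2 libraries. For *Wnt6*, the values were 3.63, 4.69 and 2.02 CPM in ctrl sh, 2.77, 3.14 and 2.89 in *Lrp2* sh1 and 3.03, 1.68 and 3.01 in *Lrp2* sh2 libraries. *Wnt6*, a ligand of surface ectoderm, was low and overlapped in those comparisons. It neighbors *Wnt10a* on chromosome 1 with a gap of 6193 bases. *Wnt10b* was at 1.01, 0.387 and 0.323 CPM in uninjected, 1.95, 0.532 and 2.18 in GFP and 1.97, 1.83 and 4.66 in nSREBP2 libraries. For *Wnt10b*, the values were 2.39, 1.25 and 1.52 CPM in ctrl sh, 2.13, 3.64 and 4.85 in *Lrp2* sh1 and 1.84, 2.93 and 2.51 in *Lrp2* sh2 libraries. *Wnt10b*, known from hair follicles and bone, was low and overlapped in those comparisons, with every ctrl sh library above every uninjected one. *Wnt9b* was at 3.03, 1.26 and 0.647 CPM in uninjected, 1.02, 0.799 and 1.20 in GFP and 1.32, 0.958 and 0.731 in nSREBP2 libraries. For *Wnt9b*, the values were 0.508, 1.33 and 1.26 CPM in ctrl sh, 0.948, 1.07 and 0.765 in *Lrp2* sh1 and 0.639, 0.503 and 0.670 in *Lrp2* sh2 libraries. *Wnt9b*, known from kidney tubules, was low as well. *Wnt9a* lies 16175 bases from *Wnt3a* on chromosome 11, where *Wnt3a* had at most 2 counts in any library.

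Of the 10 Frizzled receptors, all of which were tested, 5 changed in nSREBP2 versus GFP, 3 in *Lrp2* sh1 and 6 in *Lrp2* sh2 versus ctrl sh, against 21%, 5.33% and 18.1% of all genes. In each comparison 1 of these rose. *Fzd4* (ENSMUSG00000049791.4, chr7:89404355-89413134, plus strand) encodes the receptor of norrin as well as of Wnt ligands. *Fzd4* was at 206, 266 and 260.4 CPM in uninjected, 351, 351 and 326 in GFP and 192, 159 and 149.8 in nSREBP2 libraries. For *Fzd4*, the values were 289.6, 269.6 and 287 CPM in ctrl sh, 344, 376 and 349 in *Lrp2* sh1 and 150.1, 165 and 171 in *Lrp2* sh2 libraries. The nSREBP2 and *Lrp2* sh2 libraries were below all libraries of the other groups, whereas the *Lrp2* sh1 libraries were above every ctrl sh library. *Fzd4* fell in nSREBP2 against GFP (log2FC −1.04, SE 0.09, edgeR adjusted *P* = 5.64e-05). *Fzd4* fell in *Lrp2* sh2 against ctrl sh (log2FC −0.79, SE 0.07, edgeR adjusted *P* = 1.54e-04). *Fzd4* rose in *Lrp2* sh1 against ctrl sh (log2FC 0.34, SE 0.06, edgeR adjusted *P* = 0.0141). *Fzd4* lost this call without *Lrp2* sh1 replicate 2 (edgeR adjusted *P* from 0.00876 to 0.0637 over 6 omissions). Endothelial markers were also lower, 6 of 8 in nSREBP2 and 7 of 8 in *Lrp2* sh2, and their part in the *Fzd4* result was not tested.

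*Fzd5*, a Frizzled of the β-catenin route with known roles in eye formation, was lower in all 3 manipulations. *Fzd5* was at 75.7, 78.4 and 70.4 CPM in uninjected, 57.1, 69.7 and 74.4 in GFP and 43.5, 31.8 and 37.4 in nSREBP2 libraries. For *Fzd5*, the values were 60.1, 64.6 and 70.6 CPM in ctrl sh, 52.5, 50.9 and 54.1 in *Lrp2* sh1 and 49.2, 49.4 and 52.6 in *Lrp2* sh2 libraries. The 3 nSREBP2 libraries were the lowest of all. *Fzd5* fell in nSREBP2 against GFP (log2FC −0.84, SE 0.12, edgeR adjusted *P* = 0.00119). *Fzd5* fell in *Lrp2* sh1 against ctrl sh (log2FC −0.31, SE 0.07, edgeR adjusted *P* = 0.0398). *Fzd5* lost this call without any 1 library other than ctrl sh replicate 1 (edgeR adjusted *P* from 0.0100 to 0.161 over 6 omissions). *Fzd5* fell in *Lrp2* sh2 against ctrl sh (log2FC −0.36, SE 0.08, edgeR adjusted *P* = 0.0115). *Fzd5* shares 1233 exon bases with an opposite-strand gene.

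*Fzd8*, another Frizzled of eye development, had the same directions. *Fzd8* was at 72.5, 77.3 and 74.9 CPM in uninjected, 44.0, 52.5 and 56.4 in GFP and 39.96, 39.8 and 41.5 in nSREBP2 libraries. For *Fzd8*, the values were 66.4, 60.4 and 67.9 CPM in ctrl sh, 49.1, 49.1 and 51.2 in *Lrp2* sh1 and 44.2, 45.1 and 41.2 in *Lrp2* sh2 libraries. Uninjected libraries were the highest, and each manipulated group lay below its control without overlap. *Fzd8* fell in nSREBP2 against GFP (log2FC −0.34, SE 0.09, edgeR adjusted *P* = 0.0304). *Fzd8* lost this call without any 1 library other than GFP replicate 1 (edgeR adjusted *P* from 0.00900 to 0.110 over 6 omissions). DESeq2 did not call *Fzd8* in nSREBP2 versus GFP (log2FC −0.33, adjusted *P* = 0.0516). *Fzd8* fell in *Lrp2* sh1 against ctrl sh (log2FC −0.38, SE 0.06, edgeR adjusted *P* = 0.0102). *Fzd8* lost this call without *Lrp2* sh1 replicate 1 or *Lrp2* sh1 replicate 2 (edgeR adjusted *P* from 0.0125 to 0.0588 over 6 omissions). *Fzd8* fell in *Lrp2* sh2 against ctrl sh (log2FC −0.56, SE 0.07, edgeR adjusted *P* = 9.86e-04).

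*Fzd2*, a receptor of Wnt5a, rose with nSREBP2 and *Lrp2* sh2. *Fzd2* was at 60.6, 64.2 and 49.7 CPM in uninjected, 49.7, 50.6 and 50.8 in GFP and 78.7, 69.1 and 71.4 in nSREBP2 libraries. For *Fzd2*, the values were 54.5, 54.9 and 43.3 CPM in ctrl sh, 57.7, 62.2 and 69.6 in *Lrp2* sh1 and 82.1, 94.9 and 90.5 in *Lrp2* sh2 libraries. The *Lrp2* sh2 libraries were the 3 highest, and the nSREBP2 libraries were above all GFP libraries. *Fzd2* rose in nSREBP2 against GFP (log2FC 0.53, SE 0.07, edgeR adjusted *P* = 5.15e-04). Against uninjected libraries, *Fzd2* in nSREBP2 had a log2FC of 0.30 and was not significant (edgeR adjusted *P* = 0.0561). *Fzd2* rose in *Lrp2* sh2 against ctrl sh (log2FC 0.82, SE 0.10, edgeR adjusted *P* = 7.65e-04). In *Lrp2* sh1 versus ctrl sh it had a log2FC of 0.31 and was not significant (edgeR adjusted *P* = 0.117). *Fzd3*, a receptor known from axon guidance and planar polarity, was called with nSREBP2 alone among the 3 comparisons of the study. *Fzd3* was at 51.1, 55.0 and 50.6 CPM in uninjected, 66.0, 69.7 and 60.7 in GFP and 49.4, 53.5 and 53.7 in nSREBP2 libraries. For *Fzd3*, the values were 60.6, 79.2 and 63.3 CPM in ctrl sh, 72.9, 76.3 and 67.3 in *Lrp2* sh1 and 69.4, 79.2 and 72.5 in *Lrp2* sh2 libraries. All nSREBP2 libraries were below all GFP libraries. *Fzd3* fell in nSREBP2 against GFP (log2FC −0.33, SE 0.07, edgeR adjusted *P* = 0.0124). *Fzd3* lost this call without GFP replicate 2 or nSREBP2 replicate 1 (edgeR adjusted *P* from 0.00683 to 0.0607 over 6 omissions). Against uninjected libraries, *Fzd3* in nSREBP2 had a log2FC of −0.024 and was not significant (edgeR adjusted *P* = 0.849). The GFP libraries were above all uninjected libraries.

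*Fzd6* and *Fzd7*, receptors linked to planar polarity and to both signaling routes, fell slightly with *Lrp2* sh2. *Fzd6* was at 71.3, 81.4 and 69.0 CPM in uninjected, 83.4, 76.2 and 86.0 in GFP and 92.1, 82.0 and 93.7 in nSREBP2 libraries. For *Fzd6*, the values were 82.6, 89.6 and 84.2 CPM in ctrl sh, 89.6, 87.5 and 89.4 in *Lrp2* sh1 and 68.4, 69.6 and 75.9 in *Lrp2* sh2 libraries. Every *Lrp2* sh2 library was below every ctrl sh library for *Fzd6*. *Fzd7* was at 207, 215 and 213 CPM in uninjected, 195, 227 and 227 in GFP and 221, 188 and 193 in nSREBP2 libraries. For *Fzd7*, the values were 198, 216 and 204 CPM in ctrl sh, 195, 199 and 220.5 in *Lrp2* sh1 and 171, 172 and 159 in *Lrp2* sh2 libraries. For *Fzd7* too, every *Lrp2* sh2 library was below every ctrl sh library. *Fzd6* fell in *Lrp2* sh2 against ctrl sh (log2FC −0.25, SE 0.07, edgeR adjusted *P* = 0.0352). *Fzd6* lost this call without any 1 library other than ctrl sh replicate 1 or *Lrp2* sh2 replicate 3 (edgeR adjusted *P* from 0.0281 to 0.113 over 6 omissions). DESeq2 did not call *Fzd6* in *Lrp2* sh2 versus ctrl sh (log2FC −0.26, adjusted *P* = 0.0521). Against uninjected libraries, *Fzd6* in *Lrp2* sh2 had a log2FC of −0.064 and was not significant (edgeR adjusted *P* = 0.644). *Fzd7* fell in *Lrp2* sh2 against ctrl sh (log2FC −0.29, SE 0.07, edgeR adjusted *P* = 0.0167). *Fzd7* lost this call without ctrl sh replicate 2, ctrl sh replicate 3 or *Lrp2* sh2 replicate 3 (edgeR adjusted *P* from 0.0144 to 0.0644 over 6 omissions).

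*Fzd1*, *Fzd9* and *Fzd10*, receptors of the β-catenin route, were not significant in the 3 comparisons of the study. *Fzd1* was at 212, 223 and 179 CPM in uninjected, 193, 227 and 236 in GFP and 232, 205 and 228 in nSREBP2 libraries. For *Fzd1*, the values were 203, 236 and 236 CPM in ctrl sh, 171, 177 and 221 in *Lrp2* sh1 and 231, 235 and 217 in *Lrp2* sh2 libraries. *Fzd1* was even, within 171 to 236 CPM, and overlapped in those comparisons. *Fzd9* was at 2.82, 2.42 and 1.62 CPM in uninjected, 2.38, 3.19 and 1.73 in GFP and 1.79, 2.88 and 2.83 in nSREBP2 libraries. For *Fzd9*, the values were 2.61, 2.89 and 2.698 CPM in ctrl sh, 2.29, 3.31 and 2.04 in *Lrp2* sh1 and 2.95, 0.922 and 2.09 in *Lrp2* sh2 libraries. *Fzd9* was low in every group and overlapped likewise. *Fzd10* was at 1.61, 1.55 and 1.29 CPM in uninjected, 3.40, 2.84 and 2.03 in GFP and 2.26, 2.88 and 7.86 in nSREBP2 libraries. For *Fzd10*, the values were 2.90, 6.64 and 3.20 CPM in ctrl sh, 3.40, 3.88 and 5.87 in *Lrp2* sh1 and 7.35, 4.11 and 2.51 in *Lrp2* sh2 libraries. *Fzd10* overlapped in those comparisons, and the uninjected libraries were the 3 lowest of all.

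The R-spondins raise the surface level of Frizzled receptors through Lgr receptors and the ligases Rnf43 and Znrf3. *Rspo2* (ENSMUSG00000051920.6, chr15:43020794-43170826, minus strand) was the highest of them. *Rspo2* was at 18.7, 18.3 and 13.7 CPM in uninjected, 10.3, 11.8 and 10.2 in GFP and 4.04, 4.97 and 4.30 in nSREBP2 libraries. For *Rspo2*, the values were 10.8, 12.6 and 10.9 CPM in ctrl sh, 7.90, 7.36 and 5.95 in *Lrp2* sh1 and 6.15, 5.87 and 6.11 in *Lrp2* sh2 libraries. Uninjected libraries were the highest, and the nSREBP2 libraries were the 3 lowest. *Rspo2* fell in nSREBP2 against GFP (log2FC −1.28, SE 0.16, edgeR adjusted *P* = 5.69e-04). *Rspo2* fell in *Lrp2* sh1 against ctrl sh (log2FC −0.69, SE 0.14, edgeR adjusted *P* = 0.0246). *Rspo2* lost this call without any 1 library other than ctrl sh replicate 1 (edgeR adjusted *P* from 0.0234 to 0.0897 over 6 omissions). *Rspo2* fell in *Lrp2* sh2 against ctrl sh (log2FC −0.91, SE 0.14, edgeR adjusted *P* = 0.00202).

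*Rspo3* (ENSMUSG00000019880.10, chr10:29452416-29535867, minus strand) is known from vascular development. *Rspo3* was at 4.54, 3.48 and 3.77 CPM in uninjected, 3.23, 2.75 and 4.80 in GFP and 1.504, 1.22 and 1.46 in nSREBP2 libraries. For *Rspo3*, the values were 2.32, 3.36 and 3.03 CPM in ctrl sh, 2.13, 2.56 and 1.96 in *Lrp2* sh1 and 1.44, 2.18 and 0.921 in *Lrp2* sh2 libraries. All nSREBP2 libraries were below all GFP libraries, whereas the *Lrp2* sh2 libraries ranged widely but stayed below ctrl sh. *Rspo3* fell in nSREBP2 against GFP (log2FC −1.37, SE 0.29, edgeR adjusted *P* = 0.00908). In *Lrp2* sh2 versus ctrl sh, *Rspo3* had a log2FC of −0.92 and was not significant (edgeR adjusted *P* = 0.0838). *Rspo1* was at 2.52, 0.677 and 1.29 CPM in uninjected, 0.340, 0.532 and 0.750 in GFP and 0.376, 0.697 and 0.548 in nSREBP2 libraries. For *Rspo1*, the values were 0.943, 0.859 and 0.169 CPM in ctrl sh, 0.395, 0.661 and 0.595 in *Lrp2* sh1 and 1.36, 0.838 and 0.753 in *Lrp2* sh2 libraries. *Rspo1* was low everywhere and not significant where tested, and *Rspo3* shares 404 exon bases with an opposite-strand gene.

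Secreted inhibitors changed in 1 of 9 tested members with nSREBP2, 3 of 8 with *Lrp2* sh1 and 4 of 9 with *Lrp2* sh2, against 21%, 5.33% and 18.1% of all genes. These are few genes as well. *Sfrp1* (ENSMUSG00000031548.7, chr8:23411502-23449632, plus strand) encodes a decoy that binds Wnt ligands. *Sfrp1* was at 125, 163 and 137 CPM in uninjected, 106, 123 and 83.2 in GFP and 104, 76.7 and 75.7 in nSREBP2 libraries. For *Sfrp1*, the values were 296, 225 and 286 CPM in ctrl sh, 139, 127 and 122 in *Lrp2* sh1 and 121, 132 and 167 in *Lrp2* sh2 libraries. The ctrl sh libraries were the 3 highest of all, and both hairpin groups overlapped the uninjected range. *Sfrp1* fell in *Lrp2* sh1 against ctrl sh (log2FC −1.05, SE 0.10, edgeR adjusted *P* = 6.96e-04). *Sfrp1* fell in *Lrp2* sh2 against ctrl sh (log2FC −0.93, SE 0.13, edgeR adjusted *P* = 0.00143). *Sfrp1* rose in ctrl sh against GFP (log2FC 1.36, SE 0.15, edgeR adjusted *P* = 0.00171). *Sfrp1* rose in ctrl sh against uninjected (log2FC 0.90, SE 0.13, edgeR adjusted *P* = 0.0100). Against uninjected libraries, *Sfrp1* in *Lrp2* sh1 had a log2FC of −0.14 and was not significant (edgeR adjusted *P* = 0.316). Against uninjected libraries, *Sfrp1* in *Lrp2* sh2 had a log2FC of −0.027 and was not significant (edgeR adjusted *P* = 0.908). The fall with the hairpins is thus a fall from a control that was itself above GFP and uninjected libraries.

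*Sfrp2*, a related decoy, was lower in all 3 manipulations and higher in both control vectors than in uninjected libraries. *Sfrp2* was at 80.0, 73.7 and 55.2 CPM in uninjected, 97.9, 114 and 123 in GFP and 74.3, 53.7 and 56.8 in nSREBP2 libraries. For *Sfrp2*, the values were 93.5, 132 and 135 CPM in ctrl sh, 71.8, 75.9 and 74.7 in *Lrp2* sh1 and 81.0, 83.4 and 74.7 in *Lrp2* sh2 libraries. Every GFP and ctrl sh library was above every uninjected library, and each manipulated group lay below its control. *Sfrp2* fell in nSREBP2 against GFP (log2FC −0.86, SE 0.12, edgeR adjusted *P* = 0.00106). *Sfrp2* fell in *Lrp2* sh1 against ctrl sh (log2FC −0.69, SE 0.12, edgeR adjusted *P* = 0.0133). *Sfrp2* lost this call without *Lrp2* sh1 replicate 1, *Lrp2* sh1 replicate 2 or *Lrp2* sh1 replicate 3 (edgeR adjusted *P* from 2.80e-05 to 0.0633 over 6 omissions). *Sfrp2* fell in *Lrp2* sh2 against ctrl sh (log2FC −0.58, SE 0.13, edgeR adjusted *P* = 0.0144). *Sfrp2* lost this call without ctrl sh replicate 2 or ctrl sh replicate 3 (edgeR adjusted *P* from 3.30e-04 to 0.0627 over 6 omissions). Against uninjected libraries, *Sfrp2* in nSREBP2 had a log2FC of −0.20 and was not significant (edgeR adjusted *P* = 0.370). Against uninjected libraries, *Sfrp2* in *Lrp2* sh1 had a log2FC of 0.074 and was not significant (edgeR adjusted *P* = 0.688). Against uninjected libraries, *Sfrp2* in *Lrp2* sh2 had a log2FC of 0.18 and was not significant (edgeR adjusted *P* = 0.354). The fall of *Sfrp2* was thus seen against the vector controls only. *Sfrp2* shares 347 exon bases with an opposite-strand gene.

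*Sfrp5*, a further decoy, had the largest change of the members called between control vectors and uninjected eyes. *Sfrp5* was at 7.36, 18.2 and 21.5 CPM in uninjected, 1.61, 2.22 and 3.23 in GFP and 4.14, 2.701 and 3.20 in nSREBP2 libraries. For *Sfrp5*, the values were 1.96, 3.12 and 2.95 CPM in ctrl sh, 4.74, 4.46 and 6.04 in *Lrp2* sh1 and 4.15, 2.43 and 2.26 in *Lrp2* sh2 libraries. Uninjected libraries were above all others, with replicate 1 the lowest of them, as it was in the RPE marker sum. *Sfrp5* fell in GFP against uninjected (log2FC −2.73, SE 0.41, edgeR adjusted *P* = 0.0140). *Sfrp5* lost this call without any 1 library other than GFP replicate 3 or uninjected replicate 1 (edgeR adjusted *P* from 2.16e-04 to 0.0838 over 6 omissions). *Sfrp5* fell in ctrl sh against uninjected (log2FC −2.57, SE 0.39, edgeR adjusted *P* = 0.0120). *Sfrp5* lost this call without ctrl sh replicate 2 (edgeR adjusted *P* from 0.00192 to 0.0558 over 6 omissions). In GFP versus uninjected 5 of 8 RPE markers were lower as well. In ctrl sh versus uninjected edgeR called 0 of 8 (5 at an unadjusted *P* under 0.05 and 1 in DESeq2), and the part of these markers in the *Sfrp5* result was not tested. *Sfrp5* rose in *Lrp2* sh1 against ctrl sh (log2FC 0.93, SE 0.23, edgeR adjusted *P* = 0.0494). *Sfrp5* lost this call without any 1 of the 6 libraries (edgeR adjusted *P* from 0.0655 to 0.165 over 6 omissions).

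*Wif1* binds Wnt ligands directly and *Frzb* is another Frizzled-related decoy. *Wif1* was at 5.45, 5.71 and 4.10 CPM in uninjected, 8.57, 9.85 and 6.15 in GFP and 5.08, 6.10 and 6.67 in nSREBP2 libraries. For *Wif1*, the values were 7.18, 10.4 and 11.5 CPM in ctrl sh, 5.61, 6.61 and 6.80 in *Lrp2* sh1 and 6.55, 4.36 and 5.78 in *Lrp2* sh2 libraries. The *Lrp2* sh2 libraries were below all ctrl sh libraries. *Wif1* fell in *Lrp2* sh2 against ctrl sh (log2FC −0.78, SE 0.22, edgeR adjusted *P* = 0.0352). *Wif1* lost this call without any 1 library other than ctrl sh replicate 1 or *Lrp2* sh2 replicate 1 (edgeR adjusted *P* from 0.0110 to 0.128 over 6 omissions). *Frzb* was at 5.95, 4.93 and 6.68 CPM in uninjected, 5.35, 6.12 and 6.75 in GFP and 8.09, 6.62 and 6.40 in nSREBP2 libraries. For *Frzb*, the values were 4.57, 5.15 and 6.83 CPM in ctrl sh, 5.85, 5.62 and 5.02 in *Lrp2* sh1 and 10.4, 9.89 and 7.28 in *Lrp2* sh2 libraries. The *Lrp2* sh2 libraries were above all ctrl sh and *Lrp2* sh1 libraries. *Frzb* rose in *Lrp2* sh2 against ctrl sh (log2FC 0.75, SE 0.20, edgeR adjusted *P* = 0.0320). *Frzb* lost this call without any 1 library other than ctrl sh replicate 3 or *Lrp2* sh2 replicate 3 (edgeR adjusted *P* from 0.0173 to 0.107 over 6 omissions). *Frzb* in *Lrp2* sh2 was not significant by edgeR against uninjected libraries (log2FC 0.64). Against uninjected libraries, *Wif1* in *Lrp2* sh2 had a log2FC of 0.11.

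*Sfrp4*, a decoy expressed in mesenchyme, rose in GFP against uninjected. *Sfrp4* was at 6.86, 6.58 and 5.39 CPM in uninjected, 13.6, 11.1 and 14.3 in GFP and 10.2, 12.98 and 15.9 in nSREBP2 libraries. For *Sfrp4*, the values were 7.47, 9.996 and 9.10 CPM in ctrl sh, 8.38, 15.9 and 13.1 in *Lrp2* sh1 and 13.02, 11.2 and 8.96 in *Lrp2* sh2 libraries. All GFP libraries were above all uninjected libraries, and ctrl sh lay between. *Sfrp4* rose in GFP against uninjected (log2FC 1.03, SE 0.17, edgeR adjusted *P* = 0.0176). *Sfrp4* lost this call without GFP replicate 1, uninjected replicate 2 or uninjected replicate 3 (edgeR adjusted *P* from 0.0135 to 0.0822 over 6 omissions).

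*Dkk3*, an atypical Dickkopf without an established Wnt-blocking role, and *Dkk2*, which binds Lrp5 and Lrp6, were not significant in the 3 comparisons of the study. *Dkk3* was at 382, 507 and 566 CPM in uninjected, 487, 569 and 445 in GFP and 481, 433 and 381 in nSREBP2 libraries. For *Dkk3*, the values were 396, 394 and 381 CPM in ctrl sh, 364, 315 and 384 in *Lrp2* sh1 and 410.4, 327 and 307 in *Lrp2* sh2 libraries. *Dkk3* overlapped in those comparisons, and every GFP library was above every ctrl sh library. *Dkk2* was at 83.0, 67.3 and 70.2 CPM in uninjected, 74.6, 69.5 and 88.8 in GFP and 60.1, 56.8 and 76.7 in nSREBP2 libraries. For *Dkk2*, the values were 61.2, 78.1 and 73.6 CPM in ctrl sh, 71.7, 68.8 and 69.8 in *Lrp2* sh1 and 67.6, 61.4 and 62.4 in *Lrp2* sh2 libraries. *Dkk2* stayed within 56.8 to 88.8 CPM.

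*Lef1* (ENSMUSG00000027985.14, chr3:131110471-131224356, plus strand) encodes a β-catenin partner and is itself a Wnt target. *Lef1* was at 19.7, 20.4 and 15.1 CPM in uninjected, 13.9, 15.4 and 14.6 in GFP and 3.38, 4.18 and 3.66 in nSREBP2 libraries. For *Lef1*, the values were 12.6, 15.1 and 12.9 CPM in ctrl sh, 9.09, 9.09 and 6.63 in *Lrp2* sh1 and 5.27, 6.96 and 8.29 in *Lrp2* sh2 libraries. The nSREBP2 libraries were the 3 lowest, both hairpin groups were below all ctrl sh libraries, and uninjected replicates 1 and 2 were the highest. *Lef1* fell in nSREBP2 against GFP (log2FC −1.97, SE 0.15, edgeR adjusted *P* = 2.70e-05). *Lef1* fell in *Lrp2* sh1 against ctrl sh (log2FC −0.71, SE 0.15, edgeR adjusted *P* = 0.0253). *Lef1* lost this call without any 1 library other than ctrl sh replicate 1 (edgeR adjusted *P* from 0.0191 to 0.0828 over 6 omissions). *Lef1* fell in *Lrp2* sh2 against ctrl sh (log2FC −0.98, SE 0.18, edgeR adjusted *P* = 0.00478). *Lef1* shares 1208 exon bases with an opposite-strand gene.

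*Axin2*, the feedback inhibitor used widely as a readout of β-catenin signaling, changed less. *Axin2* was at 36.5, 43.2 and 42.1 CPM in uninjected, 38.6, 42.9 and 38.2 in GFP and 30.3, 30.8 and 30.5 in nSREBP2 libraries. For *Axin2*, the values were 46.9, 33.8 and 38.5 CPM in ctrl sh, 27.2, 29.8 and 31.0 in *Lrp2* sh1 and 35.8, 33.8 and 33.4 in *Lrp2* sh2 libraries. All nSREBP2 libraries were below all GFP libraries. *Axin2* fell in nSREBP2 against GFP (log2FC −0.39, SE 0.08, edgeR adjusted *P* = 0.00650). In *Lrp2* sh1 versus ctrl sh, *Axin2* had a log2FC of −0.44 and was not significant (edgeR adjusted *P* = 0.0625). In *Lrp2* sh2 versus ctrl sh, *Axin2* had a log2FC of −0.20 and was not significant (edgeR adjusted *P* = 0.252). DESeq2 called *Axin2* in *Lrp2* sh1 versus ctrl sh (log2FC −0.43, adjusted *P* = 0.0255). All *Lrp2* sh1 libraries were below all ctrl sh libraries.

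**Figure D4:**
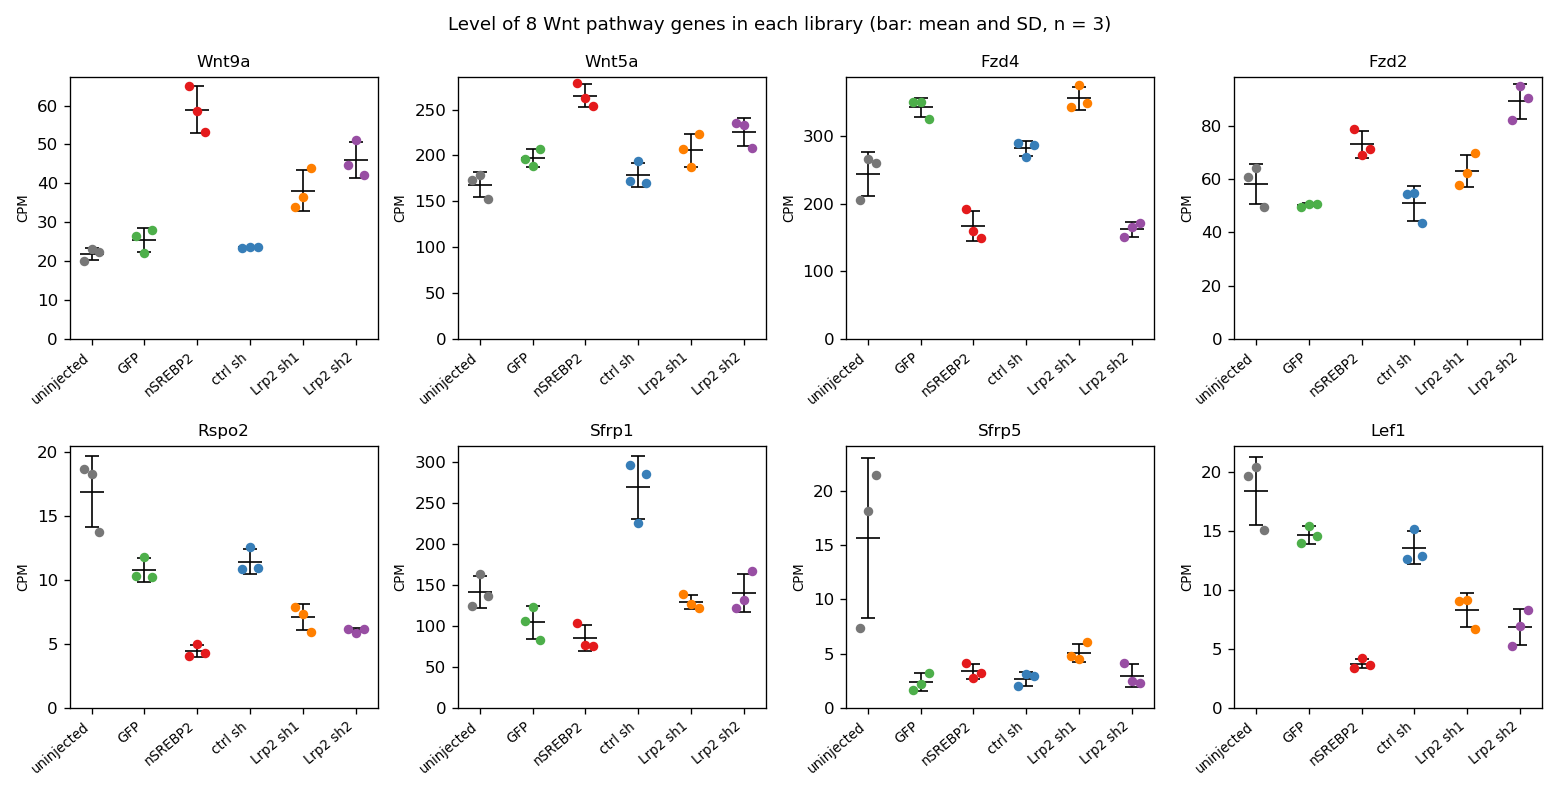
CPM of selected members in each of the 18 libraries, 1 point per library with the mean and SD of each group. *Lef1* in nSREBP2 lies between 3.38 and 4.18 CPM, below every other library.

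The control vectors were compared with uninjected eyes and with each other, since their own differences enter the comparisons above. In GFP the decoys *Sfrp2* and *Sfrp4* were higher and *Sfrp5* and *Fzd8* lower than in uninjected libraries. In GFP versus uninjected, 4 of the 33 members tested were significant, 2 higher and 2 lower, against 2.48% of all genes tested, 0.662% higher and 1.82% lower. Of those 33, 2 passed the study's further limit of an absolute log2FC above 1 in GFP versus uninjected, against 1.41% of all genes. Their median log2FC was 0.036, beside −0.0035 over all genes tested in GFP versus uninjected. *Fzd8* fell in GFP against uninjected (log2FC −0.57, SE 0.10, edgeR adjusted *P* = 0.0210). *Fzd8* lost this call without any 1 library other than GFP replicate 3 or uninjected replicate 1 (edgeR adjusted *P* from 0.0198 to 0.107 over 6 omissions). *Sfrp2* rose in GFP against uninjected (log2FC 0.66, SE 0.14, edgeR adjusted *P* = 0.0458). *Sfrp2* lost this call without any 1 library other than uninjected replicate 1 (edgeR adjusted *P* from 0.0169 to 0.171 over 6 omissions). DESeq2 called *Fzd4* in GFP versus uninjected (log2FC 0.48, adjusted *P* = 0.00231). DESeq2 called *Rspo2* in GFP versus uninjected (log2FC −0.66, adjusted *P* = 0.0283). With libraries left out in turn, the count of 4 in GFP versus uninjected changed by more than 1.5 times to these values (omitted library in parentheses): 1 (GFP replicate 2). It was 0 in edgeR without GFP replicate 1, uninjected replicate 2 or uninjected replicate 3, where 9, 14 and 11 members had an unadjusted *P* under 0.05, and DESeq2 called 6 with all 6 libraries. Markers called by edgeR in GFP versus uninjected were rod 2 higher of 7, Müller glial 1 lower of 6, RPE 5 lower of 8 and macrophage 1 lower of 8, and their part in the result was not tested.

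In ctrl sh, *Sfrp1*, *Sfrp2* and *Wif1* were higher and *Sfrp5* and *Rspo2* lower than in uninjected libraries. In ctrl sh versus uninjected, 5 of the 35 members tested were significant, 3 higher and 2 lower, against 6.49% of all genes tested, 3.13% higher and 3.37% lower. Of those 35, 1 passed the study's further limit of an absolute log2FC above 1 in ctrl sh versus uninjected, against 2.39% of all genes. The median log2FC of these members was −0.076, beside −0.0038 over all genes tested in ctrl sh versus uninjected. *Sfrp2* rose in ctrl sh against uninjected (log2FC 0.76, SE 0.17, edgeR adjusted *P* = 0.0362). *Sfrp2* lost this call without any 1 library other than uninjected replicate 1 or ctrl sh replicate 1 (edgeR adjusted *P* from 0.0205 to 0.141 over 6 omissions). *Wif1* rose in ctrl sh against uninjected (log2FC 0.90, SE 0.22, edgeR adjusted *P* = 0.0479). *Wif1* lost this call without any 1 library other than ctrl sh replicate 1 (edgeR adjusted *P* from 0.0303 to 0.167 over 6 omissions). *Rspo2* fell in ctrl sh against uninjected (log2FC −0.59, SE 0.15, edgeR adjusted *P* = 0.0492). *Rspo2* lost this call without any 1 library other than uninjected replicate 3 (edgeR adjusted *P* from 0.0452 to 0.157 over 6 omissions). DESeq2 called *Fzd10* in ctrl sh versus uninjected (log2FC 1.51, adjusted *P* = 0.0148). With libraries left out in turn, the count of 5 in ctrl sh versus uninjected changed by more than 1.5 times to these values (omitted library in parentheses): 2 (uninjected replicate 2), 3 (uninjected replicate 3), 1 (ctrl sh replicate 2) and 2 (ctrl sh replicate 3). Markers called by edgeR in ctrl sh versus uninjected were fibroblast and scleral 1 higher of 8, pericyte and smooth muscle 2 lower of 6, macrophage 3 lower of 8 and Schwann cell 2 higher of 4, and their part in the result was not tested.

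Between the control vectors, *Sfrp1* had the larger change of the members called. In ctrl sh versus GFP, 2 of the 34 members tested were significant, 1 higher and 1 lower, against 2.68% of all genes tested, 2.32% higher and 0.361% lower. Of those 34, 1 passed the study's further limit of an absolute log2FC above 1 in ctrl sh versus GFP, against 0.899% of all genes. Tested members had a median log2FC of −0.0082, beside −0.016 over all genes tested in ctrl sh versus GFP. The 5.88% of tested members rests on 2 genes and is not a result about the members as a whole. Markers called by edgeR in ctrl sh versus GFP were Müller glial 2 higher of 6, RPE 3 higher of 8 and melanocyte 1 lower of 6, and their part in the result was not tested. *Fzd4* fell in ctrl sh against GFP (log2FC −0.29, SE 0.06, edgeR adjusted *P* = 0.0463). *Fzd4* lost this call without any 1 library other than GFP replicate 3 (edgeR adjusted *P* from 0.0426 to 0.190 over 6 omissions). With the replicate number as a block, *Sfrp1* had a log2FC of 1.36 (edgeR adjusted *P* = 0.00101), *Fzd4* −0.29 (adjusted *P* = 0.0522) and *Dkk3* −0.36 (adjusted *P* = 0.0361). DESeq2 called *Dkk3* in ctrl sh versus GFP (log2FC −0.36, adjusted *P* = 0.00541). With libraries left out in turn, the count of 2 in ctrl sh versus GFP changed by more than 1.5 times to these values (omitted library in parentheses): 1 (GFP replicate 1), 1 (GFP replicate 2), 4 (GFP replicate 3), 1 (ctrl sh replicate 1), 1 (ctrl sh replicate 2) and 1 (ctrl sh replicate 3).

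Both hairpins lowered *Lrp2* to similar levels but differed in several members, among them *Fzd4*, *Fzd2*, *Frzb* and *Wnt2b*. In *Lrp2* sh2 versus *Lrp2* sh1, 8 of the 34 members tested were significant, 4 higher and 4 lower, against 22.4% of all genes tested, 10.2% higher and 12.3% lower. Of those 34, 3 passed the study's further limit of an absolute log2FC above 1 in *Lrp2* sh2 versus *Lrp2* sh1, against 5.13% of all genes. Their median log2FC was −0.036, beside 0.011 over all genes tested in *Lrp2* sh2 versus *Lrp2* sh1. The 23.5% of tested members is close to the 22.4% of all genes and is not a result about the members. Markers called by edgeR in *Lrp2* sh2 versus *Lrp2* sh1 were rod 8 higher of 8, other retinal 5 higher of 6, Müller glial 3 lower of 6, RPE 5 lower of 8, endothelial 8 lower of 8, fibroblast and scleral 2 higher of 8, pericyte and smooth muscle 2 higher and 2 lower of 6, macrophage 5 higher of 8, Schwann cell 2 lower of 4 and blood 2 lower of 3, and their part in the result was not tested. *Fzd4* fell in *Lrp2* sh2 against *Lrp2* sh1 (log2FC −1.13, SE 0.07, edgeR adjusted *P* = 4.13e-06). *Notum*, a lipase that inactivates Wnt ligands, had 34 summed counts in *Lrp2* sh2 against 4 in *Lrp2* sh1, a depth-adjusted ratio of 8.53 (95% counting interval 3.04 to 33.1). *Notum* was at 0.202, 0.580 and 0 CPM in uninjected, 2.04, 3.02 and 0.225 in GFP and 1.03, 0.784 and 0.0914 in nSREBP2 libraries. For *Notum*, the values were 0.653, 0.234 and 0.169 CPM in ctrl sh, 0.0790, 0.165 and 0.0850 in *Lrp2* sh1 and 0.958, 1.01 and 0.837 in *Lrp2* sh2 libraries. GFP replicates 1 and 2 were highest, and 918 exon bases of *Notum* are shared with opposite-strand genes. *Wnt16* was at 0.908, 5.22 and 1.29 CPM in uninjected, 3.99, 4.53 and 0.525 in GFP and 4.51, 6.45 and 4.94 in nSREBP2 libraries. For *Wnt16*, the values were 3.55, 0.625 and 1.01 CPM in ctrl sh, 0.869, 0.827 and 1.87 in *Lrp2* sh1 and 2.72, 2.52 and 3.18 in *Lrp2* sh2 libraries. *Wnt16* libraries of one group differed widely outside nSREBP2 and *Lrp2* sh2. The *Wnt16* call in *Lrp2* sh2 versus *Lrp2* sh1 was lost without any 1 library other than *Lrp2* sh1 replicate 3 or *Lrp2* sh2 replicate 2 (edgeR adjusted *P* from 0.00741 to 0.0958 over 6 omissions). DESeq2 called *Fzd1* in *Lrp2* sh2 versus *Lrp2* sh1 (log2FC 0.26, adjusted *P* = 0.0334). With sex as a term, the calls of *Fzd7*, *Notum*, *Wnt16* and *Wnt2b* were lost.

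Whether the effect of nSREBP2 over GFP differed from that of a hairpin over ctrl sh was tested in the fit of 18 libraries. For *Lrp2* sh1, 6 of 38 members tested differed, against 9.75% of all genes. *Fzd4* differed by −1.39 on the log2 scale (SE 0.13, edgeR adjusted *P* = 5.79e-06). *Lef1* also differed by −1.26 on the log2 scale (SE 0.24, edgeR adjusted *P* = 0.00308). The others were −0.62 for *Wnt2b*, −0.54 for *Fzd5*, −0.43 for *Fzd3* and 0.76 for *Sfrp1*. With sex as a term 2 remained, and the count changed by more than 1.5 times to 3 (omitted: GFP replicate 2), 3 (omitted: nSREBP2 replicate 1), 2 (omitted: ctrl sh replicate 1), 3 (omitted: ctrl sh replicate 3). For *Lrp2* sh2, 3 of 38 members tested differed, against 5.63% of all genes, namely *Lef1* (−0.99), *Fzd3* (−0.46) and *Fzd6* (0.37). It became 1 without nSREBP2 replicate 1, 1 without ctrl sh replicate 1, 1 without *Lrp2* sh2 replicate 3, and 0 in edgeR without GFP replicate 2, nSREBP2 replicate 3, ctrl sh replicate 3 or *Lrp2* sh2 replicate 2, where 6, 6, 6 and 7 members had an unadjusted *P* under 0.05. DESeq2 was not run for this contrast.

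Of 48 further genes of the pathway machinery, 45 were tested in each comparison of the study, and 11 changed with nSREBP2 (3 higher, 8 lower), 5 with *Lrp2* sh1 (2 higher, 3 lower) and 12 with *Lrp2* sh2 (3 higher, 9 lower). The shares were 24.4%, 11.1% and 26.7%, against 21%, 5.33% and 18.1% of all genes, and the first is close to that of all genes. The medians were −0.067, −0.023 and −0.079. The list held 6 other regulators, the secreted *Sost*, *Sostdc1*, *Draxin*, *Cer1* and *Ndp* and the membrane protein *Tspan12*. Of these, 4, 2 and 3 of 4 tested were lower in these comparisons, against 8.47%, 2.28% and 9.48% of all genes. These are few genes, and in nSREBP2 versus GFP DESeq2 called 3 of 6. *Sost* was at 11.6, 8.42 and 5.17 CPM in uninjected, 3.14, 2.57 and 3.60 in GFP and 0.188, 0 and 0.457 in nSREBP2 libraries. For *Sost*, the values were 2.54, 4.84 and 5.14 CPM in ctrl sh, 1.11, 1.32 and 0.680 in *Lrp2* sh1 and 0.319, 0.0838 and 0.419 in *Lrp2* sh2 libraries. *Sost*, an antagonist that binds Lrp5 and Lrp6, was near the detection limit in nSREBP2 and *Lrp2* sh2 libraries. Its summed counts give a ratio of GFP to nSREBP2 of 14.8 (95% counting interval 6.95 to 37.6) and of ctrl sh to *Lrp2* sh2 of 14.95 (7.92 to 31.8). *Sost* fell in *Lrp2* sh1 against ctrl sh (log2FC −1.99, SE 0.35, edgeR adjusted *P* = 0.0126). *Sostdc1* was at 46.1, 68.4 and 73.2 CPM in uninjected, 49.1, 58.1 and 52.2 in GFP and 33.6, 26.6 and 21.2 in nSREBP2 libraries. For *Sostdc1*, the values were 144, 147 and 172 CPM in ctrl sh, 59.6, 52.7 and 58.8 in *Lrp2* sh1 and 34.2, 39.7 and 51.0 in *Lrp2* sh2 libraries. *Sostdc1*, which antagonizes Wnt and BMP signals, was highest in the ctrl sh libraries and lower in both hairpin groups. Every ctrl sh library was above every GFP and uninjected library, and the *Lrp2* sh1 values lay within the uninjected range. For *Sostdc1*, the nSREBP2 libraries were below all GFP libraries. *Sostdc1* fell in *Lrp2* sh1 against ctrl sh (log2FC −1.44, SE 0.08, edgeR adjusted *P* = 6.12e-05). *Sostdc1* fell in *Lrp2* sh2 against ctrl sh (log2FC −1.88, SE 0.14, edgeR adjusted *P* = 6.15e-05).

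*Ndp* was at 3.63, 4.45 and 3.77 CPM in uninjected, 5.69, 3.37 and 5.78 in GFP and 1.88, 0.871 and 0.914 in nSREBP2 libraries. For *Ndp*, the values were 3.34, 4.30 and 4.13 CPM in ctrl sh, 3.95, 4.63 and 3.32 in *Lrp2* sh1 and 2.16, 1.51 and 1.84 in *Lrp2* sh2 libraries. *Ndp*, the gene of norrin, a ligand of *Fzd4*, was lower in nSREBP2 and *Lrp2* sh2 than in their controls without overlap. *Ndp* fell in nSREBP2 against GFP (log2FC −2.03, SE 0.35, edgeR adjusted *P* = 0.00308). *Ndp* fell in *Lrp2* sh2 against ctrl sh (log2FC −1.08, SE 0.24, edgeR adjusted *P* = 0.0126). *Celsr3* was at 4.24, 3.29 and 3.99 CPM in uninjected, 1.78, 2.40 and 3.98 in GFP and 11.001, 9.93 and 8.13 in nSREBP2 libraries. For *Celsr3*, the values were 1.67, 1.80 and 2.53 CPM in ctrl sh, 1.82, 1.74 and 2.98 in *Lrp2* sh1 and 8.86, 6.54 and 3.10 in *Lrp2* sh2 libraries. *Celsr3*, a cadherin of planar polarity, was higher in the same groups than in their controls. *Celsr3* rose in nSREBP2 against GFP (log2FC 1.81, SE 0.28, edgeR adjusted *P* = 0.00150). *Celsr3* rose in *Lrp2* sh2 against ctrl sh (log2FC 1.64, SE 0.37, edgeR adjusted *P* = 0.0147). Of 12 other β-catenin target genes, 11 were tested, and 4 changed with nSREBP2 (2 higher, 2 lower), 1 with *Lrp2* sh1 (1 lower) and 2 with *Lrp2* sh2 (1 higher, 1 lower), against 21%, 5.33% and 18.1% of all genes. With so few genes, and a share in *Lrp2* sh2 close to that of all genes, this is not a result about the targets. Their medians were −0.14, −0.12 and −0.16. *Myc* was at 12.6, 11.9 and 16.8 CPM in uninjected, 7.90, 7.72 and 13.4 in GFP and 20.97, 20.6 and 22.7 in nSREBP2 libraries. For *Myc*, the values were 11.2, 9.996 and 9.95 CPM in ctrl sh, 10.9, 13.6 and 15.5 in *Lrp2* sh1 and 12.1, 16.6 and 13.6 in *Lrp2* sh2 libraries. *Myc*, a growth regulator, was higher in every nSREBP2 library than in any GFP library. *Myc* rose in nSREBP2 against GFP (log2FC 1.13, SE 0.20, edgeR adjusted *P* = 0.00309).

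Promoter windows of RefSeq, each from 250 bases before to 50 after a gene start on GRCm38.p6, were found for 32 members in 38 windows. The TCF and LEF core CTTTGA, searched on both strands, occurred in 6 windows of 6 members (*Dkk1*, *Frzb*, *Fzd1*, *Lef1*, *Wnt11* and *Wnt5b*), and in 16% of all 32851 windows. The E-box CACGTG occurred in 5 (*Fzd9*, *Lef1*, *Rspo4*, *Wif1* and *Wnt9a*), and in 7.15% of all windows. The sterol element TCACNCCAC occurred in 0 of the 38 windows and in 1.24% of all. The windows of *Wnt9a*, which rose in all 3 comparisons of the study, and of *Lef1*, which fell in all 3, are printed with matches in capitals. *Wnt9a* is at chr11:59306680-59306979 on the plus strand. The *Lef1* window, 1 of 4, is at chr3:131156044-131156343 on the plus strand, inside the gene. It is printed because it holds matches, and the other 3 *Lef1* windows held none of the 3 motifs. A match describes letters and not a bound site.
Wnt9a: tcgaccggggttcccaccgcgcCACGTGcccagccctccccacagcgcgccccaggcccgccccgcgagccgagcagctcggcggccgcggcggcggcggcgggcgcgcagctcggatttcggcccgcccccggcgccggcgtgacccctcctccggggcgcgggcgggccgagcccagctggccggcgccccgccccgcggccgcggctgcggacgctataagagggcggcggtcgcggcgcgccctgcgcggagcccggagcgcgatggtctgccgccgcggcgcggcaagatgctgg
Lef1: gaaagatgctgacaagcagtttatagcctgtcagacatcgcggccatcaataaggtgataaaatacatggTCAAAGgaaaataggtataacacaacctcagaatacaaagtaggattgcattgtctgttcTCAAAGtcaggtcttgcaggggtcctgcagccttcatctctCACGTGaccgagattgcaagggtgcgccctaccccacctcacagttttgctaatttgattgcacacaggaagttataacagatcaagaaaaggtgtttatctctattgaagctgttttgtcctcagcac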

How the data were processed

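RNA-seq libraries of RPE from 18 mice were used. The deposited table of the authors holds raw integer counts for each gene, and the submitters' processing notes name STAR 2.7.3a and GRCm38. The labels do not state the annotation or the use of strand. Each comparison was fitted on its 6 libraries by quasi-likelihood in edgeR 4.0.16 (R 4.3.3) after filterByExpr and TMM scaling, adjusted over all genes tested by the method of Benjamini and Hochberg. SEs were derived from the log2FC and F statistic. DESeq2 1.42.0 was an alternative. Levels between genes are per kb of GENCODE M21 exon.

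Members and lists were chosen with earlier results of these data known. Named were members with a group mean of at least 1 CPM or a significant call, genes of the machinery list (48) and β-catenin target list (12) significant with an absolute log2FC above 1 in a comparison of the study, *Srebf2*, *Lrp2*, and the most abundant gene and markers at 0 of marker lists given beside a member. Of 13 marker lists, the surface epithelial one was chosen after seeing the data, as was leaving out libraries from the tests of differences between effects.

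Pairing by replicate number was checked by correlating deviations from group means across genes, which are not independent replicates. All 3 pairs exceeded 0.1 only in ctrl sh versus GFP (0.216, 0.118 and 0.260). Further alternatives were DESeq2 size factors, 2 filters on low counts, all 18 libraries in a fit, sex as a term, the replicate block, uninjected as control and leaving out each library. The fits were tested on simulated data. Recovery of changed genes by DESeq2 first missed the preset limit, and the limit was then applied to genes with more counts, which both tools passed.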

Additional observations from a re-analysis of the deposited data

Results flagged for a closer look

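Both hairpins target *Lrp2*, so members that differed between them are listed here, by the edgeR test of *Lrp2* sh2 against *Lrp2* sh1 itself. The log2FC was 0.75 for *Frzb*, 0.50 for *Fzd2*, 2.98 for *Notum* and 1.24 for *Wnt16*, and it was −1.13 for *Fzd4*, −0.31 for *Fzd6*, −0.28 for *Fzd7* and −0.47 for *Wnt2b*. The *Notum* value rests on 4 counts in *Lrp2* sh1. Markers called by edgeR in *Lrp2* sh2 versus *Lrp2* sh1 were rod 8 higher of 8, other retinal 5 higher of 6, Müller glial 3 lower of 6, RPE 5 lower of 8, endothelial 8 lower of 8, fibroblast and scleral 2 higher of 8, pericyte and smooth muscle 2 higher and 2 lower of 6, macrophage 5 higher of 8, Schwann cell 2 lower of 4 and blood 2 lower of 3, and 2 of the *Lrp2* sh2 mice were male. The part of the markers in these differences was not tested. The calls of *Fzd7*, *Notum*, *Wnt16* and *Wnt2b* were lost with sex as a term in the fit of 18 libraries.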

How the results depend on the processing

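Counts of members significant by edgeR changed with these alternatives, and the cause was not tested. The further limit of an absolute log2FC above 1 left 5, 1 and 0 members in nSREBP2, *Lrp2* sh1 and *Lrp2* sh2 against their controls (2 at an unadjusted *P* under 0.05 and 0 in DESeq2 for the last), 2 and 1 in GFP and ctrl sh versus uninjected, 1 in ctrl sh versus GFP and 3 in *Lrp2* sh2 versus *Lrp2* sh1. With sex as a term in the fit of 18 libraries, 7 members were significant in nSREBP2 versus GFP, 9 in *Lrp2* sh2 versus ctrl sh, 4 in *Lrp2* sh2 versus *Lrp2* sh1 and 2 for the difference between nSREBP2 and *Lrp2* sh1. With the replicate block, 5 members were significant in *Lrp2* sh1 versus ctrl sh and 1 in ctrl sh versus uninjected. With uninjected libraries as the control, 17 were significant in *Lrp2* sh1. Without a filter on low counts, 8 were significant in GFP versus uninjected and 6 in ctrl sh versus GFP, and 7 in GFP versus uninjected with all 18 libraries in the fit. The share of all genes called in these alternative fits is not given, so these counts are not results about the members.

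In the leave-one-out fits, the members significant ranged over 11 to 16 in nSREBP2 versus GFP, 2 to 10 in *Lrp2* sh1 versus ctrl sh, 9 to 15 in *Lrp2* sh2 versus ctrl sh, 0 to 5 in GFP versus uninjected, 1 to 5 in ctrl sh versus uninjected, 1 to 4 in ctrl sh versus GFP, 7 to 11 in *Lrp2* sh2 versus *Lrp2* sh1. The members whose effects differed ranged over 2 to 5 for *Lrp2* sh1 and 0 to 4 for *Lrp2* sh2, alternatives chosen after seeing the data. The share of all genes called in the same fits is not given beside these ranges, which are not results about the members. Where these ranges reach 0, the report gives the unadjusted counts, and DESeq2 was run for the comparisons of groups only.

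With uninjected libraries as the control, the sign changed for *Sfrp5* in nSREBP2 (−2.25), *Lrp2* sh1 (−1.64) and *Lrp2* sh2 (−2.41), for *Sfrp2* in *Lrp2* sh1 (0.074) and *Lrp2* sh2 (0.18) and for *Wif1* in *Lrp2* sh2 (0.11). Of these, the *Sfrp2* and *Wif1* values were near 0. No other alternative turned a direction of a called member. Of the log2FC of named members, sex as a term ended 21 calls and added 6, the replicate block 15 and 5, all 18 libraries in the fit 8 and 9, uninjected as control 7 and 22, DESeq2 4 and 6, DESeq2 size factors 1 and 2, no filter 1 and 17, at least 10 counts in every library 0 and 3, and the omissions 107 and 21. The size of change detectable near 1 CPM with 3 libraries per group was not tested.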
